A study of Mus musculus with 20 samples.

Results

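Genes that mark adipose progenitors and fibroblasts, the supporting cells that surround adipocytes, were followed in visceral fat, 10 in all: Pdgfra, Pdgfrb, Dpp4, Pi16, Cd34, Ly6a, Dcn, Fap, Thy1 and Acta2. They were chosen by name, as the spots of the array that are not controls and whose gene name is one of these symbols. The choice was made with earlier results of these data known. All 10 of 10 were found among the 37074 gene names of the array, on 19 probes, and all 19 probes passed the filter on dim signals. The tissue was epididymal fat of C57bl/6J male mice of the F3 generation, with 1 array of 1 colour for each of 20 mice. Ref (STD Cont, n = 6) were mice of the control lineage, fed a low-fat diet in the challenge. That lineage was bred over 3 generations on a growing diet with a small supplement of high-oleic sunflower oil. HFoleic (HFD Cont, n = 6) were mice of the same control lineage fed a diet rich in fat and sucrose. HFepa (HFD O3, n = 8) were mice of the omega 3 lineage, fed the same rich diet. That lineage was bred on the growing diet with an equal supplement of fish oil rich in eicosapentaenoic acid (EPA). No group held omega 3 lineage mice on the low-fat diet, so the comparison of HFepa with Ref differs in lineage and diet together. How many litters the mice came from is not given in the sources used here, and the p-values measure the spread between these mice.

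White fat holds adipocytes in a stroma of mesenchymal cells, vessels and immune cells. PDGFRα marks the mesenchymal cells from which new adipocytes arise, and PDGFRβ marks progenitors around vessels and pericytes. Cells with Dpp4 and Pi16 form an early progenitor pool in the interstitium between fat lobules, and cells with Icam1 are further committed to the adipocyte fate. Fap, Thy1 and Dcn are used as fibroblast markers, and Acta2 marks smooth muscle cells, pericytes and activated myofibroblasts. In a whole tissue, fewer cells of a type and less RNA per cell cannot be told apart. Cd34 and Ly6a are also made by endothelial cells, and Thy1 by T cells in mice.

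Values are log2 of the median spot intensity after quantile normalisation, read for each gene at its brightest tested probe, and a difference of 1 is a doubling. Levels are compared between mice for 1 gene, not between genes. The median signal per array was 83 to 114, 66.1 to 71.9% of spots were above background, and no spot was saturated. The number of arrays limits the precision. The arrays lay on 3 slides, each with mice of all 3 groups, and slide 2 held 1 HFoleic mouse, so that a slide 2 difference from or to HFoleic rests on that mouse. Testis or epididymis marker RNA stood high on 5 arrays (Ref mice 3 and 6, HFoleic mouse 5, HFepa mice 2 and 4). High meant a mean level of the testis markers above 8 or of the epididymis markers above 7. The counts without these arrays are given after the main ones. They rest on fewer mice, so the loss of mice and the removal of such RNA cannot be told apart in them. Adipoq, Plin1 and the other adipocyte markers were measured on every array, with a mean level of the 10 genes between 15.72 and 16.28.

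Fap, Thy1 and Cd34 were higher in HFoleic than in Ref, by 1.92-fold, 1.54-fold and 1.34-fold. No gene of the 10 passed the test in HFepa vs. Ref or in HFepa vs. HFoleic. A gene was called where the adjusted p of limma, over 39390 tested probes, was below 0.05. In HFoleic vs. Ref 3 of 10 genes (30%) were called, beside 31.8% of the 25618 gene names tested, so the share of the 10 that passed was close to that of the array as a whole, and 4 of 10 had an unadjusted p below 0.05, beside 42.2%. All 3 were higher in HFoleic, where 15.2% of all gene names were called higher and 16.7% lower. In HFepa vs. Ref 0 of 10 genes were called, beside 2.46% of gene names (1.03% higher and 1.42% lower), with 2 genes at an unadjusted p below 0.05, beside 21.6%, and the groups overlapped for all 10, while 1.04% of gene names showed no overlap. In HFepa vs. HFoleic 0 of 10 were called, beside 0% of gene names, with 4 genes at an unadjusted p below 0.05, beside 20.8%, and the groups again overlapped for all 10, while 0.355% of gene names showed no overlap. The median log2 difference of the 10 genes was 0.16, 0.16 and -0.17 in the 3 comparisons, beside -0.04, -0.02 and 0.01 over all gene names.

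**Figure D1:**
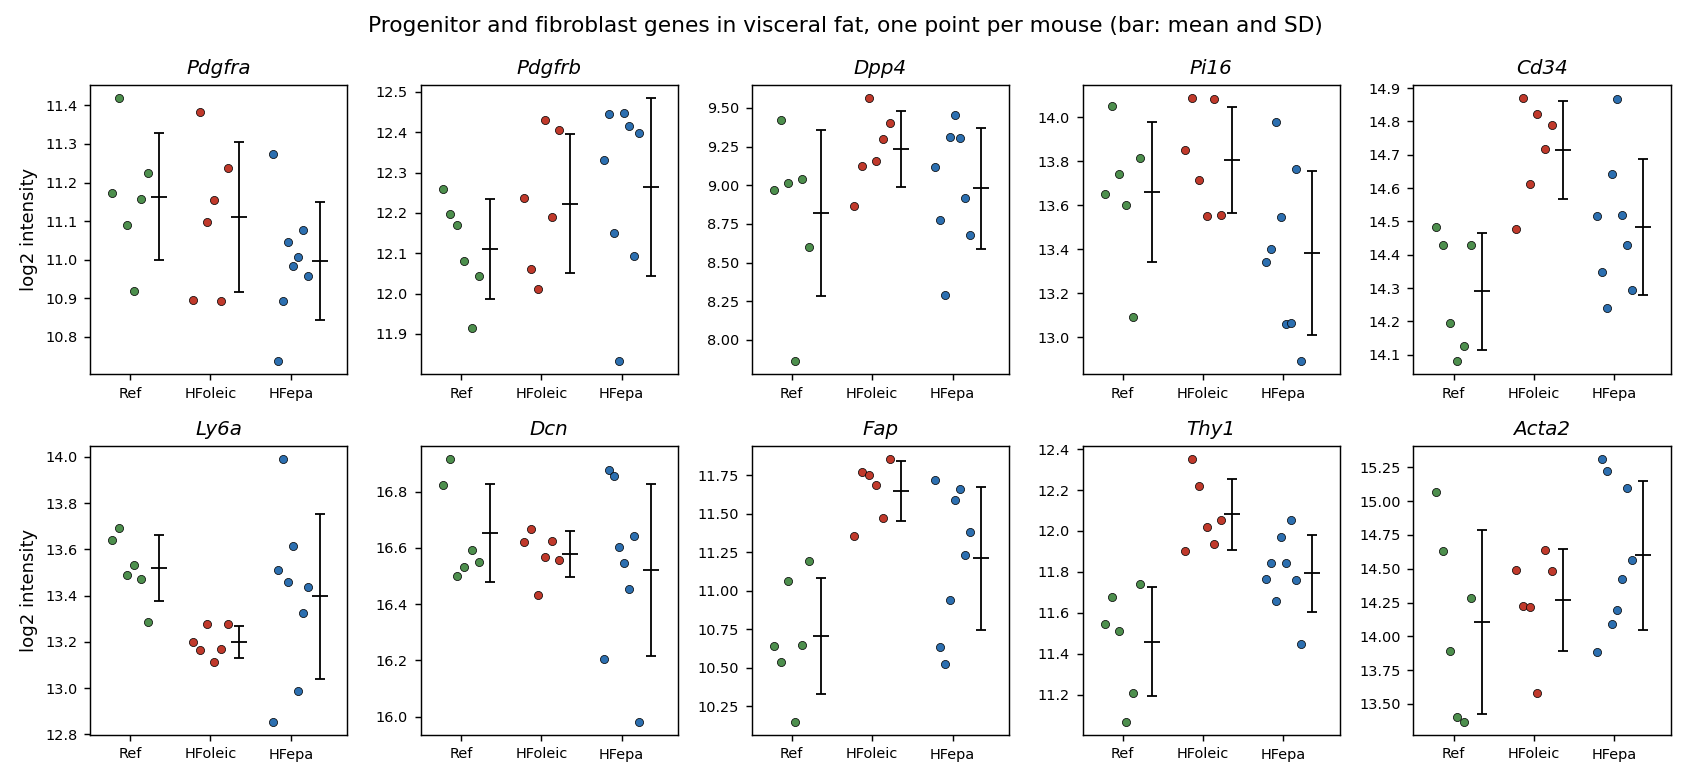
Log2 intensity of each gene at its brightest probe, with 1 point per mouse in Ref (n = 6), HFoleic (n = 6) and HFepa (n = 8), and a bar for the mean and SD beside the points; each panel has its own vertical axis, which does not start at 0. Fap and Thy1 points of HFoleic lie above every Ref point, and Ly6a points of HFoleic lie below every Ref point.

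The 2 probes whose sequences are shown next carry results that the brightest probes alone do not show. The first is the second Fap probe, which tests the Fap difference at another position of the transcript. The second is the Acta2 probe that spans a splice junction, which was the only one of the 4 Acta2 probes to be called. Both are printed as they lie on the array, along the strand of the gene and without capitals, since no shorter stretch of them was examined. The Fap probe is at chr2:62340501-62340560 (mm9, minus strand) and the Acta2 probe between chr19:34322995-34326249 (mm9, minus strand), where its 60 bases lie within 3255 bases of genome.
Fap: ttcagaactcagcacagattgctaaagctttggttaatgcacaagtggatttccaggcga
Acta2: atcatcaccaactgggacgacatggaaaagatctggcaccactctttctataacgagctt
Both can be read through without a stop codon in 2 of the 3 frames. Actin genes resemble each other along their coding sequence, so a probe there may also bind RNA of another actin gene, and the level at this Acta2 probe is uncertain for that reason. Binding to other actin RNA was not examined for any Acta2 probe, the brightest included.

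Fap encodes fibroblast activation protein, a serine protease of the cell surface related to DPP4. Its level in Ref was 10.15 at the lowest, 10.64 at the median and 11.20 at the highest (10.71 ± 0.38, SD, n = 6). In HFoleic it was 11.35, 11.72 and 11.86 (11.65 ± 0.19, SD, n = 6). All 6 HFoleic mice were above all 6 Ref mice, a separation shown by 6.92% of all gene names in this direction. The log2 difference was 0.94 (SE 0.20, 95% CI 0.52 to 1.37, adjusted p = 0.0022). The difference was positive within each of the 3 slides, and smallest within slide 3, at 0.75. At the second Fap probe, the first sequence above, the levels were 8.07 ± 0.43 in Ref and 9.08 ± 0.29 in HFoleic, and the log2 difference of 1.01 was also called (adjusted p = 0.0025).

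In HFepa the level of Fap ran from 10.53 over a median of 11.31 to 11.72, and the mice spread from the range of Ref into that of HFoleic. Of the 8 HFepa mice, 5 lay above every Ref mouse and 4 lay below every HFoleic mouse. The log2 difference was 0.50 against Ref (SE 0.19, adjusted p = 0.142) and -0.44 against HFoleic (SE 0.19, adjusted p = 0.204). Against Ref it was 0.97 within slide 1, 0.41 within slide 2 and 0.02 within slide 3. HFepa mice 1 and 6 had the highest Fap levels of their group, 11.72 and 11.66.

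Thy1, a surface glycoprotein of fibroblasts and mesenchymal cells, had a level of 11.07, 11.53 and 11.74 (lowest, median and highest) in Ref. In HFoleic the level was 11.90, 12.04 and 12.35, and in HFepa 11.45, 11.80 and 12.05. All 6 HFoleic mice were above all Ref mice, while 6 of the 8 HFepa mice were above all Ref mice and 6 of 8 were below all HFoleic mice. The log2 difference of HFoleic from Ref was 0.62 (SE 0.12, 95% CI 0.38 to 0.87, adjusted p = 0.0010) and was positive within each of the 3 slides. HFepa was 0.33 above Ref on the log2 scale (SE 0.11, adjusted p = 0.0987) and 0.29 below HFoleic (log2 difference -0.29, SE 0.11, adjusted p = 0.157), and neither difference passed the test. Of the 9 T cell markers Cd2 was called higher in HFoleic than in Ref and no marker was called lower, beside 15.2% and 16.7% of all gene names. The mean level of the list ran from 7.88 to 8.61 in Ref and from 7.93 to 8.59 in HFoleic.

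Cd34, a sialomucin of the surface of progenitors and endothelial cells, had a level of 14.08, 14.31 and 14.48 in Ref (14.29 ± 0.18, SD, n = 6). In HFoleic the level was 14.48, 14.75 and 14.87 (14.72 ± 0.15, SD, n = 6), and 5 of 6 HFoleic mice were above every Ref mouse. The log2 difference was 0.42 (SE 0.10, 95% CI 0.21 to 0.64, adjusted p = 0.0044), and it was 0.24, 0.62 and 0.50 within the 3 slides. A second, dimmer Cd34 probe gave 0.25 in the same direction and was not called (adjusted p = 0.0787). In HFepa the level of Cd34 was 14.24, 14.47 and 14.87, with a difference of 0.19 from Ref (adjusted p = 0.265) and of -0.23 from HFoleic (adjusted p = 0.183). None of the 10 endothelial markers (Pecam1, Cdh5 and others) was called in HFoleic vs. Ref, beside 31.8% of all gene names. Their mean level was 11.48 to 11.90 in Ref and 11.43 to 11.82 in HFoleic.

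Ly6a encodes Sca-1, a surface protein of mesenchymal and blood progenitors and of endothelial cells. Its level was 13.29, 13.51 and 13.69 in Ref and 13.11, 13.18 and 13.28 in HFoleic, so that all 6 HFoleic mice were below all 6 Ref mice. Groups that do not overlap were found for 3 of the 10 genes in HFoleic vs. Ref (Fap, Thy1 and Ly6a), beside 14.0% of all gene names. The log2 difference of Ly6a, -0.32 (SE 0.14, 95% CI -0.60 to -0.04), did not pass the test over all 3 groups (adjusted p = 0.0787), and it was negative within each of the 3 slides. The Ly6a difference passed in 2 of 11 alternatives, where only Ref and HFoleic were fitted (adjusted p = 0.0042) and with array weights (adjusted p = 0.018). Over the 11 it ran from -0.33 to -0.18, with an adjusted p of up to 0.277. Of 20 fits that left out 1 array, 2 passed, without HFepa mouse 1 (adjusted p = 0.0395) or HFepa mouse 3 (adjusted p = 0.0321). The highest adjusted p of those fits was 0.149. The HFepa mice had the widest spread of the 3 groups, from 12.85 over a median of 13.45 to 13.99 (SD 0.36, beside 0.14 in Ref and 0.07 in HFoleic). The 2 lowest Ly6a values of all 20 mice were those of HFepa mice 1 and 6, at 12.85 and 12.99.

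**Figure D2:**
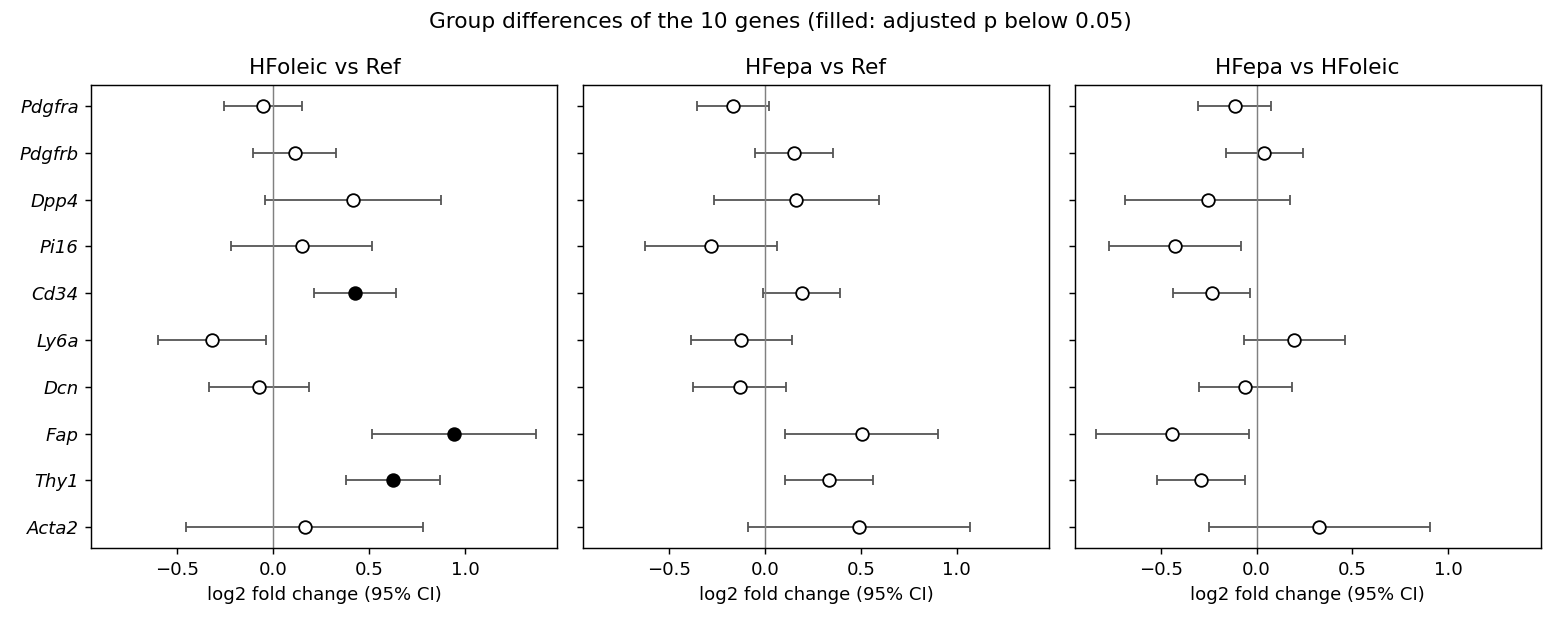
Log2 fold change of the 10 genes in each of the 3 comparisons, with the 95% confidence interval of limma; filled points have an adjusted p below 0.05. Cd34, Fap and Thy1 are filled in HFoleic vs. Ref, and no point is filled in the other comparisons.

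The PDGF receptors, the tyrosine kinases through which platelet-derived growth factors act on mesenchymal cells, lay close together between groups. Pdgfra was at 10.92, 11.16 and 11.42 in Ref, at 10.89, 11.13 and 11.38 in HFoleic and at 10.74, 10.996 and 11.27 in HFepa. The log2 difference of HFoleic from Ref was -0.05, with a 95% CI from -0.26 to 0.15 (adjusted p = 0.721). HFepa was at -0.17 from Ref (95% CI -0.36 to 0.02, adjusted p = 0.309). Pdgfrb was at 11.91, 12.13 and 12.26 in Ref, at 12.01, 12.21 and 12.43 in HFoleic and at 11.83, 12.37 and 12.45 in HFepa. Its differences were 0.11 in HFoleic vs. Ref (95% CI -0.10 to 0.33, adjusted p = 0.447), 0.15 in HFepa vs. Ref (adjusted p = 0.389) and 0.04 in HFepa vs. HFoleic (95% CI -0.16 to 0.24, adjusted p = 0.856). The groups overlapped at both receptors. Of the 4 ligand genes, Pdgfb, which is made mainly by endothelial cells and platelets, fell by 0.43 on the log2 scale in HFoleic vs. Ref (adjusted p = 0.0089), and Pdgfa, Pdgfc and Pdgfd were not called. The 1 of 4 ligand genes called stands beside 31.8% of all gene names. No ligand was called in the comparisons with HFepa.

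Dpp4, a dipeptidyl peptidase of the cell surface, and Pi16, a secreted or membrane-bound peptidase inhibitor, mark the interstitial progenitor pool. Dpp4 was at 7.86, 8.99 and 9.42 in Ref, at 8.87, 9.23 and 9.56 in HFoleic and at 8.29, 9.02 and 9.45 in HFepa. Ref mouse 5 had the lowest value of all 20 mice, 7.86, and was also the lowest in Fap, Thy1 and Cd34. The log2 difference of Dpp4 in HFoleic vs. Ref was 0.42 with a wide interval (95% CI -0.04 to 0.88, adjusted p = 0.161), and it was negative within slide 1 (-0.05) and positive within slides 2 and 3. Without Ref mouse 5 the difference was 0.23 (adjusted p = 0.396). The 2 other Dpp4 probes were dim and gave -0.10 and -0.02, and the mean of all 3 probes gave 0.099 (adjusted p = 0.615).

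Pi16 was at 13.09, 13.70 and 14.05 in Ref, at 13.55, 13.78 and 14.09 in HFoleic and at 12.89, 13.37 and 13.98 in HFepa. Of the 8 HFepa mice 6 lay below every HFoleic mouse. The log2 difference of HFepa from HFoleic was -0.43 (SE 0.17, 95% CI -0.77 to -0.08), with Fap alone lower among the 10 genes in that comparison, and it did not pass the test (adjusted p = 0.163). It was negative within every slide, at -0.56, -0.75 and -0.03. In HFoleic vs. Ref the difference was 0.15 (adjusted p = 0.570).

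Dcn encodes decorin, a small proteoglycan that binds collagen fibrils. It was at 16.50, 16.57 and 16.92 in Ref, at 16.43, 16.59 and 16.67 in HFoleic and at 15.98, 16.58 and 16.88 in HFepa, with all 3 groups overlapping. The log2 difference was -0.07 in HFoleic vs. Ref (95% CI -0.33 to 0.18, adjusted p = 0.693) and -0.13 in HFepa vs. Ref (adjusted p = 0.558). Dcn did not hold its sign within slides: in HFepa vs. Ref it was -0.62, 0.10 and 0.20 in slides 1, 2 and 3. HFepa mice 8 and 1 had the lowest values of all mice, 15.98 and 16.20.

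Acta2, the smooth muscle actin, varied more between mice of 1 group than any other of the 10 genes at its brightest probe, with an SD of 0.68 in Ref, 0.38 in HFoleic and 0.55 in HFepa. Its level was 13.37, 14.09 and 15.07 in Ref, 13.58, 14.35 and 14.64 in HFoleic and 13.88, 14.49 and 15.31 in HFepa. The log2 difference was 0.16 in HFoleic vs. Ref (SE 0.30, 95% CI -0.45 to 0.78, adjusted p = 0.717) and 0.49 in HFepa vs. Ref (SE 0.28, adjusted p = 0.326). Within slides 1, 2 and 3 the first of these was -0.67, 0.38 and 0.80. The probes did not give 1 answer. At the splice junction probe, the second sequence above, HFoleic was at 12.16, 12.47 and 12.60 and Ref at 11.31, 11.84 and 12.51, and the difference of 0.51 was called (adjusted p = 0.040). The dimmer of the other 2 probes to NM_007392 gave 0.06 (adjusted p = 0.900), and a probe to the transcript AK033744 gave -0.44 (adjusted p = 0.0913). Acta2 is therefore given as not called, with its probes in disagreement.

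**Figure D3:**
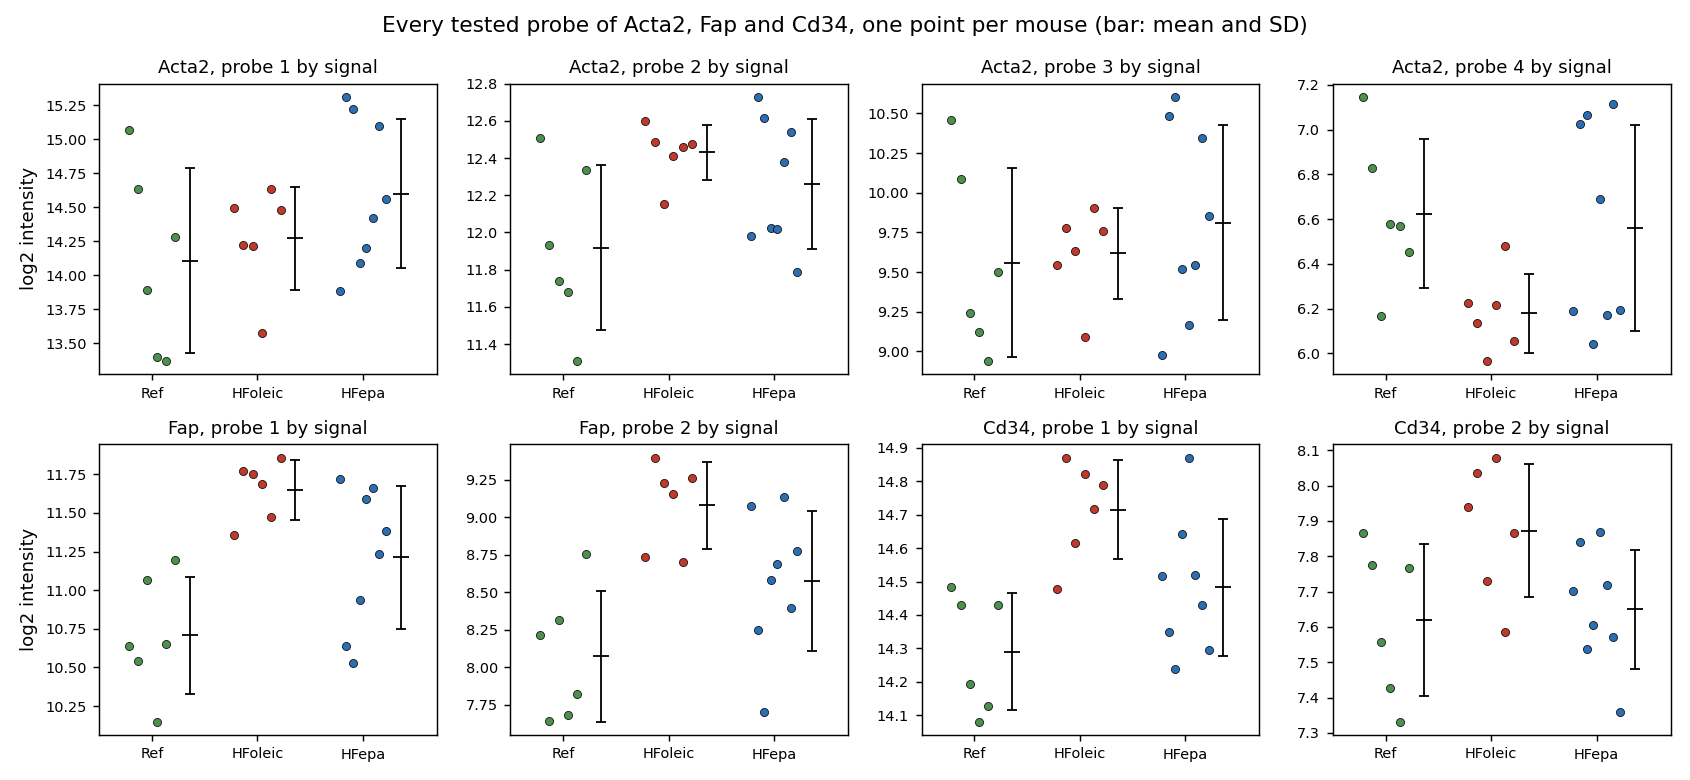
Log2 intensity at every tested probe of Acta2 (4 probes), Fap (2) and Cd34 (2), ordered by mean signal, with 1 point per mouse and a bar for the mean and SD; each panel has its own vertical axis, which does not start at 0. The mean of HFoleic lies above that of Ref at every probe shown but Acta2 probe 4, where it lies below. Acta2 probe 2 is the one over a splice junction. Points of HFoleic and Ref overlap at every probe but the first Fap probe.

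The other genes of the progenitor states were read from lists. Of 10 further interstitial progenitor genes, 3 were called higher and 1 lower in HFoleic than in Ref, beside 15.2% of all gene names called higher and 16.7% lower. Sema3c, a secreted guidance factor, rose by 0.78 (log2, adjusted p = 0.0015), Wnt2, a Wnt ligand, by 0.57 (adjusted p = 0.0030) and Limch1 by 0.52 (adjusted p = 0.0092), while Creb5 fell by 0.54. The median of the list was 0.13. Of 8 genes of committed preadipocytes, 0 were called higher and 3 lower. The share called, in either direction, was close to the 31.8% of all gene names in both lists. Agt, angiotensinogen, which adipocytes also make, fell by 1.51 (adjusted p = 0.0017). Ebf2, a transcription factor of brown and beige progenitors and of adipocytes, fell by 0.82 with no overlap between the groups (adjusted p = 0.00048), and Icam1, an adhesion molecule also found on endothelial cells, fell by 0.37 (adjusted p = 0.0102). Of 6 genes of the progenitors described as regulators of adipogenesis, the gene for tissue factor (F3) was called, and it fell by 0.63 (adjusted p = 0.0087). No gene of these 3 lists was called in a comparison with HFepa. Without the 5 arrays with testis or epididymis RNA, 17.2% of gene names were called in HFoleic vs. Ref (7.67% higher and 9.51% lower), and these lists gave 3 higher and 0 lower of 10, 0 and 2 of 8, and 0 and 1 of 6, with Creb5 and Icam1 no longer called.

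Extracellular matrix genes of fibroblasts were higher in HFoleic than in Ref in 8 of 12 cases, with 0 lower, beside 15.2% of all gene names called higher and 16.7% lower, and a median log2 difference of 0.76, beside -0.04 over all gene names. Like the other lists, this one was chosen with earlier results of these data known. Its distance from all gene names is therefore a description and not a test. Col1a1, a chain of type I collagen, rose by 1.49 (adjusted p = 0.00045), Serpinf1, which encodes PEDF, by 1.20 (adjusted p = 0.00045), and Fstl1, a secreted glycoprotein, by 0.80 (adjusted p = 0.00081). The 4 genes not called were Clec3b at 0.24, Dpt at -0.13, Gsn at -0.08 and Mfap4 (adjusted p = 0.998). In HFepa vs. Ref 1 of the 12 genes, Serpinf1, was called (0.80, adjusted p = 0.0281), and the median of the list was 0.34. In HFepa vs. HFoleic 0 of 12 were called and the median was -0.37. Among 8 small leucine-rich proteoglycans, the family of Dcn, 4 were called higher and 1 lower in HFoleic than in Ref, beside the same 15.2% and 16.7%. Lum, which encodes lumican, rose by 1.57 (adjusted p = 0.000905) and Bgn, biglycan, by 0.59 (adjusted p = 0.0010), while Podn, podocan, fell by 1.40 (adjusted p = 0.00014). In HFepa vs. Ref, Podn fell by 0.70 (adjusted p = 0.0258) and Prelp rose by 0.63 (adjusted p = 0.0391). Dcn itself stood at -0.07 and -0.13 in these comparisons, as above. Without the 5 arrays, 6 of the 12 matrix genes were higher in HFoleic than in Ref and 0 lower (median 0.76), and 3 of the 8 proteoglycan genes were higher and 1 lower. Of all gene names, 7.67% were then called higher and 9.51% lower. In HFepa vs. Ref no gene name was called without the 5 arrays, so the calls of Serpinf1, Podn and Prelp there were lost.

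**Figure D4:**
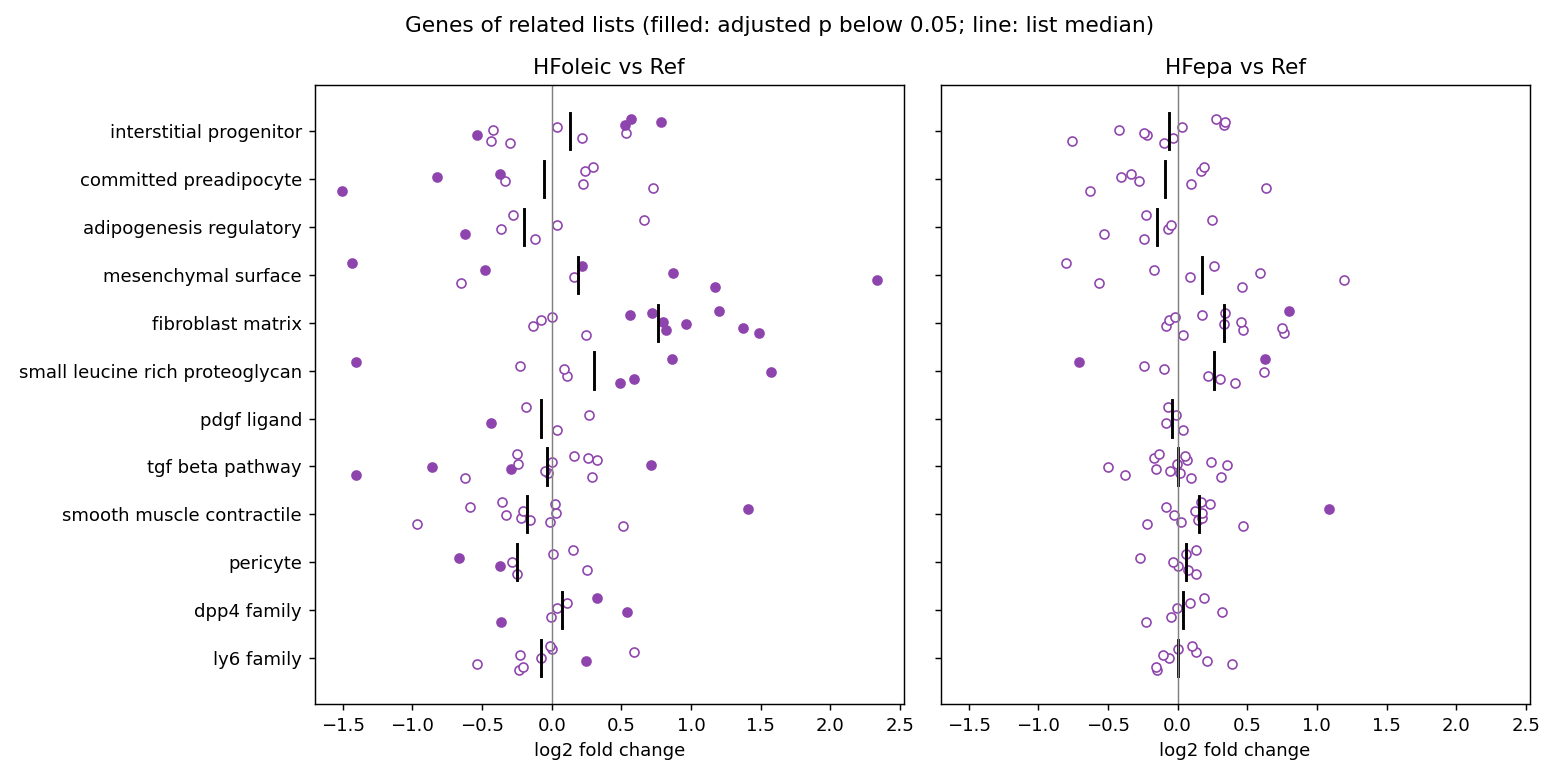
Log2 fold change of each tested gene in 12 lists of related genes, in HFoleic vs. Ref and HFepa vs. Ref; filled points have an adjusted p below 0.05 and the black line is the median of the list. The fibroblast matrix list has 8 filled points in HFoleic vs. Ref, all to the right of 0, and 1 in HFepa vs. Ref.

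Of 8 surface proteins used to sort mesenchymal cells, 4 were called higher and 2 lower in HFoleic than in Ref, beside 15.2% of all gene names called higher and 16.7% lower. Cd44, the hyaluronan receptor, which leukocytes carry too, rose by 2.33 (adjusted p = 0.00098), Alcam by 1.17 (adjusted p = 0.00057) and the tetraspanin Cd9 by 0.87 (adjusted p = 0.0207). Nt5e fell by 1.44 and Eng, endoglin, by 0.48. Of 14 genes of the TGF-beta pathway, the main inducer of matrix genes and Acta2 in fibroblasts, 1 was called higher (Tgfb1, the ligand, 0.71, adjusted p = 0.0077) and 3 lower. The inhibitor Smad7 fell by 0.86 (adjusted p = 0.00097) and the shared signal carrier Smad4 by 0.29 (adjusted p = 0.0031). The genes related to Dpp4 gave 2 of 6 called higher (Dpp7 at 0.54 and Prep at 0.33) and 1 lower (Dpp10 at -0.36). The genes related to Ly6a gave 1 of 9, Ly6e, which was higher by 0.25 (adjusted p = 0.0213). The 31.8% of all gene names called stands beside 4 of 14, 3 of 6 and 1 of 9 genes in these 3 lists. None of these lists held a called gene in a comparison with HFepa. Without the 5 arrays the surface proteins gave 2 higher (Cd44 and Alcam) and 0 lower, the TGF-beta genes 0 higher and 2 lower (Smad7 and Smad4), the genes related to Dpp4 1 higher and 1 lower, and those related to Ly6a 2 higher and 0 lower. Of all gene names, 7.67% were called higher and 9.51% lower without those arrays.

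Of 12 contractile genes of smooth muscle, the partners of Acta2, 1 was called in HFoleic vs. Ref, the actin-binding protein gene Synpo2, which rose by 1.41 (adjusted p = 0.0012). It also rose in HFepa vs. Ref, by 1.09 (adjusted p = 0.0325). The list as a whole had a median of -0.18 in HFoleic vs. Ref and 0.16 in HFepa vs. Ref, and the defining genes Myh11, Tagln and Cnn1 were not called, with -0.22, -0.58 and -0.97 in HFoleic vs. Ref. Its mean level ran from 9.94 to 10.92 in Ref, from 9.99 to 10.49 in HFoleic and from 9.89 to 11.33 in HFepa. Ref mouse 2 and HFepa mice 2, 3 and 7, the mice with the 4 highest levels of the list, also had the 4 highest levels of Acta2, 15.07, 15.31, 15.22 and 15.10. Of 7 pericyte markers 2 were called lower in HFoleic than in Ref, Mcam by -0.66 (adjusted p = 0.0096) and Higd1b by -0.37 (adjusted p = 0.0340), and Rgs5, Cspg4 and Notch3 were not called. These shares, 1 of 12 and 2 of 7, stand beside 31.8% of all gene names. Without the 5 arrays Synpo2 and Mcam were called in HFoleic vs. Ref, Higd1b was not, and Synpo2 was not called in HFepa vs. Ref. Of all gene names, 17.2% were called in HFoleic vs. Ref and 0% in HFepa vs. Ref without those arrays.

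Markers of other cells moved with the same comparison. Of 10 macrophage markers 7 were higher and 1 lower in HFoleic than in Ref (median 1.07), and of 8 markers of lipid-associated macrophages 7 were higher (median 3.62), beside 15.2% of all gene names called higher. The mean level of the second list was 9.90 to 10.77 in Ref, 12.51 to 14.03 in HFoleic and 10.27 to 14.31 in HFepa. HFepa mice 1 and 6 had the highest levels of that list in their group, 14.31 and 13.65, and they are the mice with the highest Fap and lowest Ly6a of the group. HFepa mouse 5, with a list level of only 10.60, had a Fap level of 11.59, beside 11.66 in mouse 6. Gpnmb and Atp6v0d2, markers of lipid-associated macrophages, rose by 4.89 and 4.66 in HFoleic. Of 10 adipocyte markers 4 were lower and 1 higher in HFoleic, beside 16.7% of all gene names called lower and 15.2% higher. Among them were Lipe, the hormone-sensitive lipase, which fell by 1.19, Retn, resistin, which fell by 0.65, and Lep, leptin, which rose by 1.13. The part of other cells in the differences of Fap, Thy1, Cd34 and Ly6a, and in those of the list genes, was not tested. None of the 9 mesothelial markers was called. Of the 5 tested testis markers 1 was higher and 1 lower, of 2 tested epididymis markers 0 were called, and of 6 liver markers 1 (Cyp2e1, which fat also expresses) was lower. The mean level of the liver markers varied widely between mice, from 9.30 to 12.19 in Ref. It ran from 9.23 to 13.02 in HFoleic and from 9.996 to 12.40 in HFepa. Arrays were left out by their testis and epididymis levels only. The share of all gene names called in HFoleic vs. Ref was 31.8%. Without the 5 arrays with testis or epididymis RNA, Fap, Thy1 and Cd34 were the 3 of the 10 genes called in HFoleic vs. Ref, and 0 were called in the other comparisons. Of all gene names, 17.2% were then called in HFoleic vs. Ref (7.67% higher and 9.51% lower) and 0% in the other comparisons. Without the 5 arrays 4 macrophage markers were higher and 0 lower, 7 markers of lipid-associated macrophages were higher, 1 adipocyte marker was higher and 2 were lower, and no endothelial, T cell, mesothelial, testis, epididymis or liver marker and no PDGF ligand was called in HFoleic vs. Ref.

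HFoleic and HFepa were both compared with the same 6 Ref mice, so the differences of the 2 groups from Ref are not independent. Set side by side, Fap stood at 0.94 in HFoleic and 0.50 in HFepa, Thy1 at 0.62 and 0.33, Cd34 at 0.42 and 0.19, and Ly6a at -0.32 and -0.12. Pi16 stood at 0.15 and -0.28, and Acta2 at 0.16 and 0.49. The direct test of HFepa against HFoleic, given above, did not pass for any of these.

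Mice of the same group differed among themselves, and the 10 genes were compared pair by pair after the group means were removed. Of 45 pairs, 26 had a positive Pearson correlation, 13 had an unadjusted permutation p below 0.05, and 0 passed after Benjamini-Hochberg adjustment. The pair with the smallest p was Cd34 and Thy1 (r = 0.64, permutation p = 0.0044, adjusted p = 0.103, rho = 0.67, permutation p = 0.0027, adjusted p = 0.0776, n = 20 mice), and r was 0.72 without the 2 mice farthest from the median of Cd34. Ly6a and Fap ran in opposite directions (r = -0.64, permutation p = 0.0125, adjusted p = 0.103, rho = -0.49, permutation p = 0.0589, adjusted p = 0.221), and r was -0.41 without the 2 mice farthest from the median of Ly6a.

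Over the 20 arrays, with the group differences left in, the genes most like each of the 10 were listed as a description. The points share the groups and the slides, so a gene that differs between the groups ranks high for that reason. Fap was most like Tep1 (r = 0.94), Fgf13 (0.93) and the collagen gene Col6a3 (0.93), and Thy1 was most like Fstl1 (0.94), Col1a2 (0.93) and the fibrillin gene Fbn1 (0.91). Cd34 was most like Fstl1 too (0.89). Acta2 was most like 3 muscle genes, the cardiac actin gene Actc1 (0.97), the myosin gene Myh11 (0.81) and the tropomyosin gene Tpm2 (0.81), and the value for Actc1 is uncertain because actin genes resemble each other. Dcn was most like Itga9 (0.89) and Dpep1 (0.81), Ly6a was most like Ppap2a (0.90) and Vwa1 (0.90), and Pdgfrb was most like C80012 (0.84), Myh9 (0.82) and Sp100 (0.79). Dpp4 was most like Cyp2s1 (0.87), Fanca (0.87) and Etv1 (0.86), and Pi16 was most like Krtdap (0.81), BC044739 (0.79) and Gfpt2 (0.76). For Pdgfra the 3 most similar entries carried transcript identifiers only, with r between 0.72 and 0.75.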

How the data were processed

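RNA of epididymal fat from 20 mice was hybridised to Agilent SurePrint G3 mouse arrays (8x60K), and the authors extracted spot intensities with Agilent Feature Extraction 10.10.1.1 and deposited them per array. A series table that they deposited holds log2 values the authors had filtered and quantile normalised (38168 probes, r of at least 0.99998 with the values used here). Control spots were left out, and spots marked as non-uniform or population outliers were missing (24 values, none in the 10 genes). The log2 median signal was quantile normalised, spots of a probe were averaged, and probes above background on at least 6 arrays were kept (39390 of 56605). One mean per group was fitted over all 20 arrays with limma 3.58.1 in R 4.3.3 (lmFit, eBayes, two-sided) with p-values adjusted by the Benjamini-Hochberg method across every probe tested, at a threshold of 0.05. A gene is read at its brightest tested probe. Groups came from the labels, and a slide is 1 scan. The text names all 10 genes, in each list the 3 called genes of smallest p in HFoleic vs. Ref and any called in a comparison with HFepa, and for each of the 10 genes the 3 most correlated genes; Creb5, Nt5e, Eng and the uncalled genes of the lists were named after their values were seen, and a few genes that the rule names are not reported here. The members and lists were chosen with earlier results of these data known. Coordinates are those of the array files (mm9), and probe sequences are those of its design. Scripts were tested on simulated data. The alternatives were the processed signal minus its 75th percentile, normexp with an offset of 50, median centring, the authors' table, no filter, slide and replicate blocks, array weights, only the compared groups, the mean of all probes, and leaving out each array. Pairs of genes were tested with 100000 permutations within groups. Figures were drawn with matplotlib 3.10.9.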

Additional observations from a re-analysis of the deposited data

How the results depend on the processing

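Fap, Thy1 and Cd34 kept their direction and their call in HFoleic vs. Ref under every alternative run and in each of the 20 fits that left out 1 array, and the count of called genes of the 10 was 3 or 4. The fourth was Ly6a with array weights, with only the compared groups, and without HFepa mouse 1 or HFepa mouse 3, and Pi16 in the fit with the replicate block. In the other comparisons 0 of the 10 were called under every alternative. Over the log2 differences of the 10 genes, 918 of the refitted values stayed on the same side of 0 and of the threshold, 5 gained a call and 7 changed sign, none of the last being called before or after. These 7 were Dcn in HFoleic vs. Ref with the replicate block (0.12) and without the 5 arrays with testis or epididymis RNA (0.0060), Pdgfra in HFoleic vs. Ref without those arrays (0.011), Pdgfrb in HFepa vs. HFoleic with array weights (-0.0073) and without HFoleic mouse 5 (-0.00078, with 0.10 as the highest value when 1 array was left out), Dpp4 in HFepa vs. Ref without Ref mouse 5 (-0.028, highest 0.28), and Dcn in HFepa vs. HFoleic without HFepa mouse 8 (0.019, lowest -0.11). The number of probes called over the whole array moved more, and the cause was not tested. In HFoleic vs. Ref it was 12147, and 7873 with the replicate block, 6382 without the 5 arrays (an alternative chosen after seeing the data, with fewer mice) and 9833 to 13175 when 1 array was left out. In HFepa vs. Ref it was 892, and 575 with median centring, 583 with no filter, 25 with the replicate block, 1454 with array weights, 140 with only the compared groups, 0 without the 5 arrays and 130 to 2513 when 1 array was left out. In HFepa vs. HFoleic it was 1, and 0 with the processed signal, normexp, median centring, the replicate block, only the compared groups or without the 5 arrays, 1297 with the slide block, 4304 with array weights and 0 to 2867 when 1 array was left out, the last without HFepa mouse 1. The labels do not say what the replicate numbers stand for. Same-numbered mice had correlations of their deviations from -0.59 to 0.56. These few pairs, without differently numbered pairs beside them, cannot show whether the numbers pair the mice. The replicate block changed the call of Pi16 alone among the 10 genes (0.32, adjusted p = 0.0173). Of the 30 sets of values of 1 gene in 1 group, 0 held a mouse far from the rest by Dixon's test. The number of arrays and the background of dim probes limit what can be resolved.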
